A study of Bos taurus with 8 samples.

Results

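The genes described here encode the machinery by which cells make, take up and move cholesterol. They were chosen as a list of 32 gene symbols, matched to the symbols of the deposited table without regard to case. Of these, 29 were found among the 13861 genes of the table. SC5D, INSIG2 and STARD4 had no row under those symbols. The table held a row for SC5DL, which RefSeq gives as a synonym of SC5D, and it was not counted as a member. The 29 members comprised 18 genes usually listed as targets of the transcription factor SREBP2 and 11 further members, namely the regulators SREBF1, SREBF2 and SCAP, the uptake genes VLDLR, LRP8 and MYLIP, and the trafficking genes NPC1, NPC2, LIPA, SOAT1 and STARD3.

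Messenger RNA was measured by RNA-seq in 8 bovine corpora lutea (CL), each taken on day 17 after estrus from a different Holstein heifer. Of the heifers, 4 were unbred and in the estrous cycle (cyclic replicates 1 to 4) and 4 had been bred and were pregnant (pregnant replicates 1, 2, 4 and 5). The labels name no treatment other than breeding. Values were the normalized read counts supplied by the authors, which are not adjusted for transcript length, so that levels are compared here between CL and not between genes. The recovered depth ran from 42770725 to 48294165 reads per CL, and all 29 members passed a filter on low values (a mean of at least 1), as did every other gene of the table. The whole CL is a mixed tissue, and fewer cells of a type and less RNA per cell cannot be told apart in these values. All 9 markers of steroidogenic luteal cells were present in every CL, the lowest at 2301 normalized counts.

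Luteal cells use cholesterol as the precursor of progesterone, and obtain it from circulating lipoproteins as well as by synthesis from acetyl-CoA through mevalonate, farnesyl diphosphate, squalene and lanosterol. When sterols in the endoplasmic reticulum are low, SCAP escorts SREBP2 to the Golgi, where proteases release the fragment that activates genes of synthesis and uptake. When sterols are plentiful, INSIG proteins hold the SCAP and SREBP complex in the endoplasmic reticulum.

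No member passed the test between pregnancy and the estrous cycle after adjustment over all genes. In a limma fit on log2(normalized count + 1), 0 of 29 members had an adjusted p under 0.05, where 0.0216% of all genes did, and the smallest adjusted p of a member was 0.550. The edgeR quasi-likelihood test and DESeq2, run on the recovered reads, also called 0 members, with smallest adjusted p of 0.528 and 0.160, where edgeR called 0.00721% of all genes and DESeq2 called 0.746% of the 12743 genes to which it gave an adjusted p. Of the members, 16 were above 0 and 13 below 0 in log2 fold change (pregnancy minus cycle), with a median of 0.01 and a range of -1.51 to 0.43. Over all genes, 50.1% were above 0 and the median was 0.0005. At an unadjusted p under 0.05, 2 members were higher in pregnancy (VLDLR and SREBF1), where 3.66% of all genes were, and 1 was lower (INSIG1), where 3.85% of all genes were. In either direction these were 3 of 29 members, beside 7.51% of all genes. The 18 SREBP2 targets divided into 7 above and 11 below 0 with a median of -0.02, and the 11 other members into 9 above and 2 below with a median of 0.11.

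**Figure D1:**
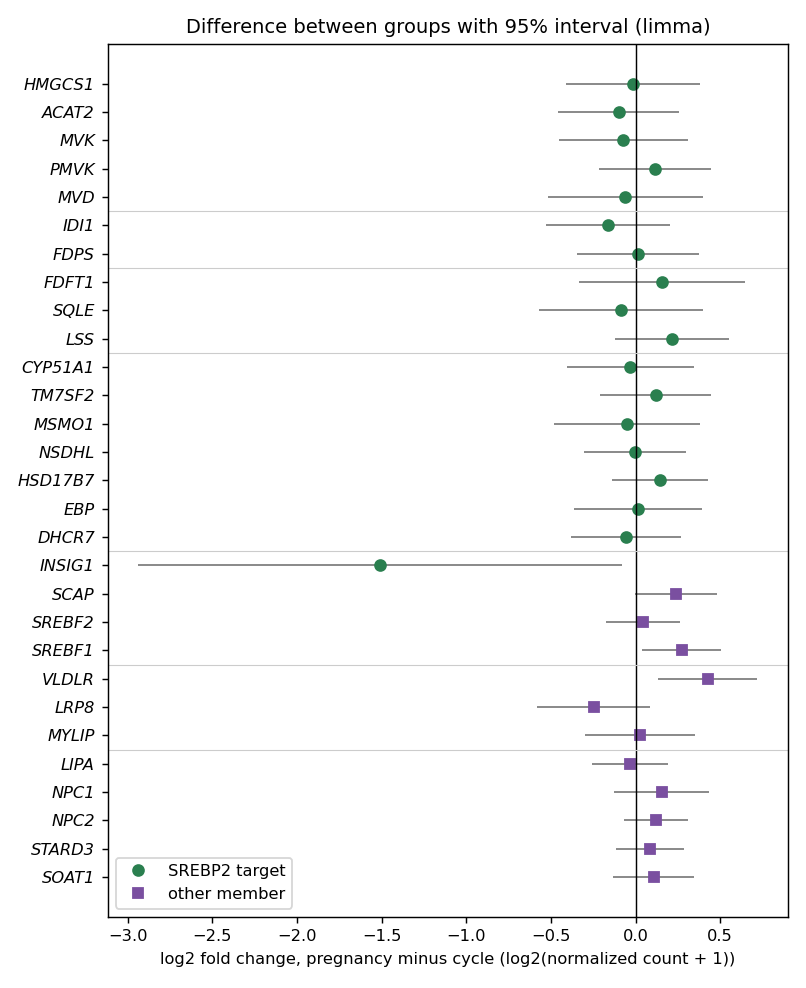
Log2 fold change (pregnancy minus cycle, on the log2 of the normalized count + 1) of each of the 29 members, with its 95% confidence interval from the limma fit; circles are SREBP2 targets and squares other members. Intervals include 0 for all but VLDLR, SREBF1 and INSIG1, of which INSIG1 has the lowest point, at -1.51, and VLDLR the highest, at 0.43.

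No gene of the mevalonate steps passed the test between pregnancy and the cycle. HMGCS1 (ENSBTAG00000011839), the cytosolic synthase that makes HMG-CoA, was at 361278, 279618, 288722 and 283687 normalized counts in cyclic CL 1 to 4, and at 281256, 386660, 231278 and 314353 in pregnant CL 1, 2, 4 and 5. The highest and the lowest CL were both pregnant, and the cyclic values lay between them. Cyclic CL averaged 303326 ± 38813 and pregnant CL 303387 ± 65177 (SD, n = 4 per group), and the log2 fold change was -0.02 with a 95% interval of -0.41 to 0.38 (adjusted p = 0.990 by limma). HMGCS1 alone took between 0.521% and 0.821% of all normalized counts of a CL.

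The other mevalonate genes were ACAT2 (the thiolase that joins acetyl-CoA units), the kinases MVK and PMVK, and the decarboxylase MVD. Their log2 fold changes ran from -0.10 for ACAT2 to 0.11 for PMVK, and the groups overlapped for each. PMVK was highest in pregnant replicate 2, at 3311 normalized counts, and lowest in pregnant replicate 4, at 2095. MVD had the same 2 pregnant animals near its extremes, at 19213 in pregnant replicate 2 and 9871 in pregnant replicate 4, next to 9654 in pregnant replicate 1.

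Of the genes that build the isoprenoid chain, IDI1, the isomerase that makes the starter unit, was at 26778, 20412, 21857 and 19398 normalized counts in cyclic CL 1 to 4, and at 18478, 20463, 15079 and 25823 in pregnant CL 1, 2, 4 and 5. The ranges overlapped, with pregnant replicate 4 lowest and cyclic replicate 1 highest. The log2 fold change was -0.16 ± 0.16 (SE), with a limma adjusted p of 0.830. FDPS, which makes farnesyl diphosphate, had a log2 fold change of 0.01, with its lowest value, 24393, in pregnant replicate 4 and its highest, 43216, in pregnant replicate 5.

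The steps from farnesyl diphosphate through squalene to lanosterol are run by FDFT1 (squalene synthase), SQLE (squalene epoxidase) and LSS (lanosterol synthase). SQLE (ENSBTAG00000005498) was at 50430, 44820, 50233 and 39550 normalized counts in cyclic CL 1 to 4, and at 39908, 59832, 27662 and 53706 in pregnant CL 1, 2, 4 and 5. The pregnant CL were spread 2.16-fold and enclosed the cyclic values. The means were 46258 ± 5173 and 45277 ± 14399 (SD, n = 4 each), with a log2 fold change of -0.09 ± 0.22 (SE; adjusted p = 0.944 by limma).

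LSS did not share the order of SQLE across the CL. Its values were 23271, 16063, 19708 and 18644 normalized counts in cyclic CL 1 to 4, and 22214, 28700, 21057 and 18464 in pregnant CL 1, 2, 4 and 5. Pregnant replicate 2 was highest, as for SQLE, but pregnant replicate 4 stood above 3 of the 4 cyclic CL. The log2 fold change of LSS was 0.21 ± 0.15 (SE; adjusted p = 0.754 by limma), and that of FDFT1 was 0.16 ± 0.22 (SE; adjusted p = 0.882 by limma).

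Among the 7 genes that turn lanosterol into cholesterol, 3 were above 0 and 4 below 0, with a median log2 fold change of -0.003. CYP51A1, the demethylase of lanosterol, was at 33347, 27998, 28346 and 25810 normalized counts in cyclic CL 1 to 4, and at 27893, 33210, 19884 and 34055 in pregnant CL 1, 2, 4 and 5. NSDHL, which works with MSMO1 in removing methyl groups from the sterol ring, was at 42931, 41056, 38776 and 36964 in cyclic CL 1 to 4, and at 36195, 45866, 31843 and 47393 in pregnant CL 1, 2, 4 and 5. For both genes pregnant replicate 5 was the highest CL and pregnant replicate 4 the lowest, and the cyclic values lay between them. DHCR7, the reductase of the last step of one branch, was at 78842, 63606, 70900 and 59558 in cyclic CL 1 to 4, and at 59141, 81829, 54369 and 68929 in pregnant CL 1, 2, 4 and 5. Pregnant replicate 2 was highest and pregnant replicate 4 again lowest. The log2 fold changes were -0.03 for CYP51A1, -0.003 for NSDHL and -0.06 for DHCR7 (adjusted p = 0.977, 0.997 and 0.947 by limma).

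HSD17B7, a ketosteroid reductase of the same stretch, was at 4351, 5470, 4721 and 3869 normalized counts in cyclic CL 1 to 4, and at 4422, 5600, 4630 and 5651 in pregnant CL 1, 2, 4 and 5. Unlike NSDHL it was lowest in cyclic replicate 4, and the groups overlapped (log2 fold change 0.14 ± 0.13, SE; adjusted p = 0.804 by limma). The reductase TM7SF2, the oxygenase MSMO1 and the isomerase EBP had log2 fold changes of 0.12, -0.05 and 0.01. MSMO1 was lowest in pregnant replicate 4, at 53311, and highest in pregnant replicate 5, at 103315.

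The widest differences between CL were in INSIG1 (ENSBTAG00000001592), the sterol-regulated anchor that holds SCAP back and is itself an SREBP2 target. Its values were 25900, 13719, 36634 and 37986 normalized counts in cyclic CL 1 to 4, and 7378, 36234, 2992 and 9444 in pregnant CL 1, 2, 4 and 5. Of the pregnant CL, 3 were below all cyclic CL and pregnant replicate 2 was among the highest of the 8, so that the groups overlapped. The highest CL exceeded the lowest 12.7-fold, and the spread within groups (SD of the log2 values) was 1.16, against a median of 0.233 over the members and 0.260 over all genes. Cyclic CL averaged 28560 ± 11275 and pregnant CL 14012 ± 15057 (SD, n = 4 per group), and the log2 fold change was -1.51 ± 0.64 (SE), with a 95% interval of -2.94 to -0.08. This did not pass after adjustment over all genes (adjusted p = 0.639 by limma), and the 2-sided exact permutation test over the 70 labelings gave p = 0.0857. The fold change was -2.16 without pregnant replicate 2 and -0.96 without pregnant replicate 4, and edgeR gave -1.03 with all 8 CL.

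**Figure D2:**
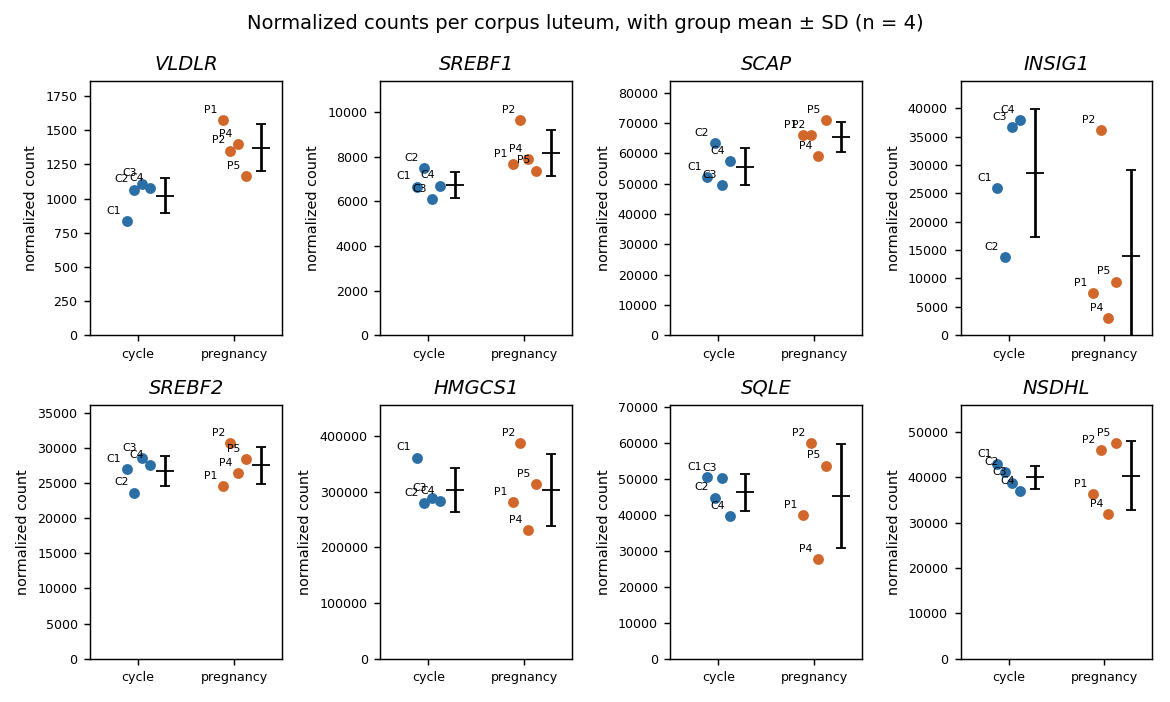
Normalized counts (linear axes from 0) of 8 members in each CL, by group, with points for single CL and the mean ± SD of each group (n = 4). INSIG1 in pregnancy has 1 CL at 36234 and 3 between 2992 and 9444, and the lower end of its SD bar falls below the axis; the VLDLR groups do not overlap, the lowest pregnant CL being at 1163 and the highest cyclic CL at 1110.

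The messengers of the SREBP factors and of SCAP varied far less than INSIG1. SREBF2, which encodes SREBP2, was at 26948, 23615, 28566 and 27525 normalized counts in cyclic CL 1 to 4, and at 24544, 30610, 26454 and 28443 in pregnant CL 1, 2, 4 and 5. The groups overlapped, with means of 26663 ± 2140 and 27513 ± 2607 (SD, n = 4 each) and a log2 fold change of 0.04 ± 0.10 (SE; adjusted p = 0.932 by limma).

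SREBF1, which encodes the factors better known for fatty acid synthesis, was at 6657, 7483, 6083 and 6703 normalized counts in cyclic CL 1 to 4, and at 7674, 9654, 7901 and 7372 in pregnant CL 1, 2, 4 and 5. All but 1 of the pregnant CL were above all cyclic CL. With a log2 fold change of 0.27 ± 0.10 (SE), SREBF1 did not pass after adjustment over all genes (adjusted p = 0.617 by limma; exact permutation p = 0.0571). SCAP was at 52154, 63344, 49476 and 57546 in cyclic CL 1 to 4, and at 65968, 66106, 59011 and 71087 in pregnant CL 1, 2, 4 and 5. Again 3 pregnant CL were above all cyclic CL, and the log2 fold change was 0.24 ± 0.11 (SE; adjusted p = 0.660 by limma, exact permutation p = 0.0571).

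VLDLR (ENSBTAG00000018517), a receptor that binds lipoproteins carrying apolipoprotein E, was the member with the smallest p. Its values were 836, 1066, 1110 and 1075 normalized counts in cyclic CL 1 to 4, and 1577, 1352, 1400 and 1163 in pregnant CL 1, 2, 4 and 5. Every pregnant CL was above every cyclic CL. It was the only member whose groups did not overlap, where 4.3% of all genes had such groups. By direction, this was 1 member higher in pregnancy, beside 2.03% of all genes, and 0 members lower, beside 2.27%. The means were 1022 ± 125 and 1373 ± 170 (SD, n = 4 each), with a log2 fold change of 0.43 and a 95% interval of 0.13 to 0.72. After adjustment over all genes this did not pass (adjusted p = 0.550 by limma), and the exact permutation p of 0.0286 is the smallest that 4 against 4 can give.

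LRP8, a related receptor, was at 1509, 1183, 1265 and 1459 normalized counts in cyclic CL 1 to 4, and at 1043, 1476, 1141 and 947 in pregnant CL 1, 2, 4 and 5. Of the pregnant CL, 3 were below all cyclic CL and pregnant replicate 2 was among the highest, which is the arrangement of INSIG1 at a much smaller scale. The log2 fold change was -0.25 ± 0.15 (SE; adjusted p = 0.721 by limma). MYLIP, the ubiquitin ligase that marks lipoprotein receptors for degradation, had a log2 fold change of 0.03, with a 95% interval of -0.30 to 0.35.

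The trafficking genes were among the steadiest members. NPC2, which hands cholesterol to NPC1 in the lysosome, was at 8419, 8463, 7497 and 7492 normalized counts in cyclic CL 1 to 4, and at 7897, 8565, 9437 and 8754 in pregnant CL 1, 2, 4 and 5. The membrane protein NPC1 was at 8998, 7545, 8412 and 7231 in cyclic CL 1 to 4, and at 8350, 11390, 8445 and 7900 in pregnant CL 1, 2, 4 and 5. Pregnant replicate 2 was above the other 7 CL for NPC1 but not for NPC2, and both genes overlapped between groups (log2 fold change 0.15 for NPC1 and 0.12 for NPC2; adjusted p = 0.785 and 0.755 by limma).

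SOAT1, which esterifies cholesterol for storage, was at 8379, 6870, 6840 and 5916 normalized counts in cyclic CL 1 to 4, and at 7449, 6960, 7788 and 7770 in pregnant CL 1, 2, 4 and 5. The cyclic values enclosed the pregnant ones. STARD3, a sterol carrier of late endosomes, was at 1849, 1644, 1906 and 1784 in cyclic CL 1 to 4, and at 1787, 1825, 2035 and 1965 in pregnant CL 1, 2, 4 and 5. It had the smallest spread within groups of any member (SD of the log2 values 0.0901). LIPA, the lysosomal acid lipase that frees cholesterol from lipoprotein esters, had a log2 fold change of -0.03, with a 95% interval of -0.26 to 0.19.

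Across the 8 CL, the SREBP2 targets moved up and down together. Of the 153 pairs among the 18 targets, 151 had a Pearson r above 0 on the log2 values, with a median of 0.703 and a range of -0.116 to 0.979, and 76.5% of pairs were above 0.5. Over all pairs of genes in the table the median was -0.002 and 12.2% were above 0.5. The 11 other members had a median of 0.062, with 16.4% of pairs above 0.5. When the mean of each group was subtracted first, the median over the targets was 0.732, with 81.0% of pairs above 0.5. These correlations rest on 8 CL, each value of a CL comes from the same library and scaling, and they are given as a description without a p. The median ran from 0.619 to 0.741 when single CL were left out, the lowest without pregnant replicate 4, and was 0.613 after quantile normalization.

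**Figure D3:**
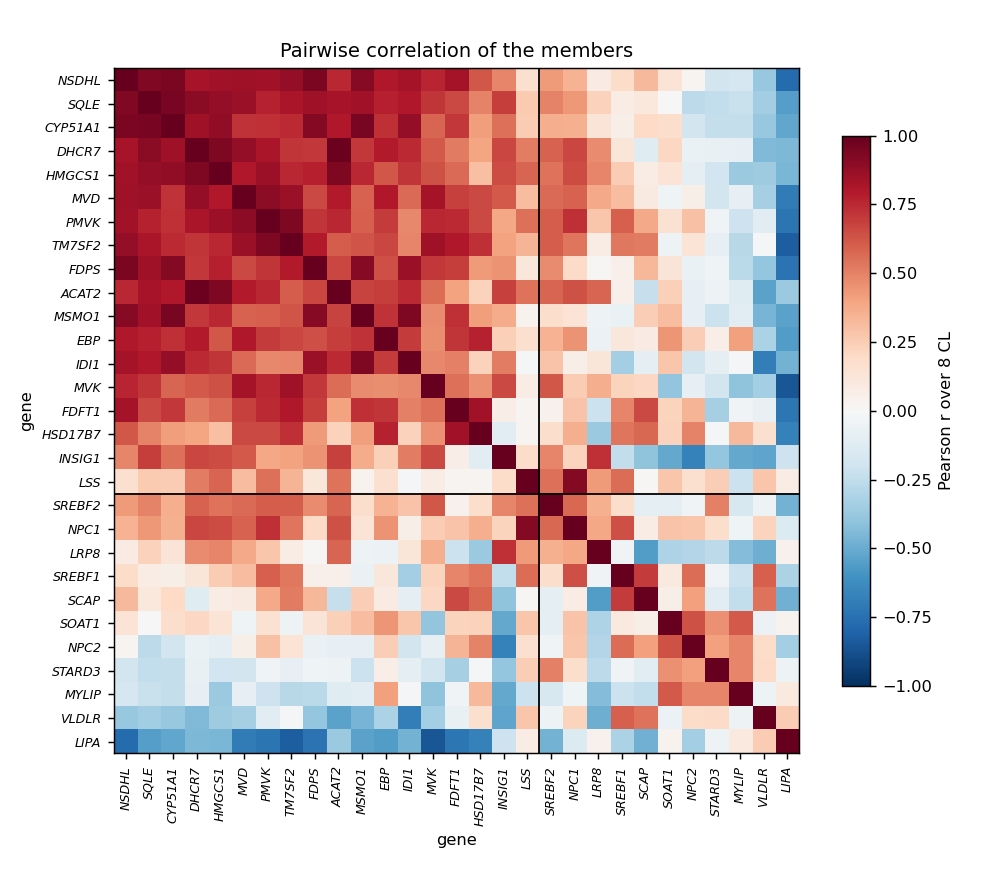
Pearson r of log2(normalized count + 1) across the 8 CL for each pair of the 29 members, with color from -1 to 1. The block of SREBP2 targets is mostly high (median 0.703), apart from LSS, INSIG1 and HSD17B7, and LIPA runs opposite to most targets.

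The CL stood in a clear order for these genes, and the order did not follow pregnancy. The median target was at 124% of its mean over the 8 CL in pregnant replicate 2, at 117% in pregnant replicate 5 and at 110% in cyclic replicate 1. It was at 97.5% and 97.3% in cyclic replicates 2 and 3, at 89.1% in cyclic replicate 4, at 88.2% in pregnant replicate 1 and at 77.4% in pregnant replicate 4. Pregnant CL thus held both ends of the order. Of the 18 targets, 13 were lowest in pregnant replicate 4, 8 were highest in pregnant replicate 2 and 7 were highest in pregnant replicate 5. Together the targets took 1.36% of normalized counts in pregnant replicate 4 and 2.15% in pregnant replicate 2, with the other CL between 1.64% and 2.02%.

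**Figure D4:**
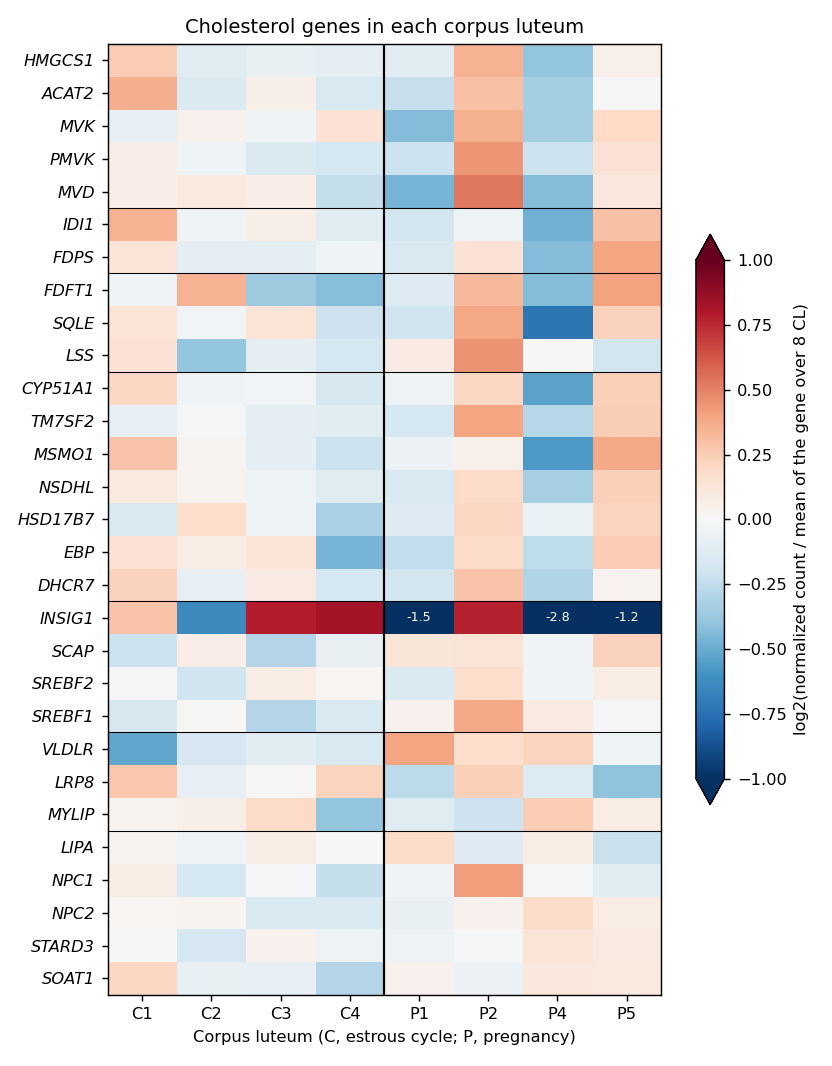
Level of each of the 29 members in each CL (C, estrous cycle, and P, pregnancy) as the log2 of the normalized count over the mean of the gene in the 8 CL, with members ordered by role; the color ends at -1 and 1, and values of INSIG1 beyond it are written in the cells. Pregnant replicate 4 is low and pregnant replicates 2 and 5 are high over most genes of synthesis, while the trafficking genes do not share that order.

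Measured against the mean of the other targets, the closest members were NSDHL (r = 0.965), SQLE (r = 0.952), CYP51A1 (r = 0.921), DHCR7 (r = 0.915) and HMGCS1 (r = 0.911). Of the 18 targets, 11 were above 0.8 and 6 above 0.9, where 1.43% and 0.274% of all genes were so close to the mean of the targets. The least close targets were LSS (r = 0.287), INSIG1 (r = 0.533) and HSD17B7 (r = 0.538). The value of LSS turned on single CL, ranging from -0.214 to 0.438 when 1 CL was left out, and that of INSIG1 from 0.136 to 0.732. INSIG1 was thus the most variable of the targets and one of the least close to the rest.

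Of the 11 members outside the list of targets, 2 had r above 0.5 with the mean of the targets. These were SREBF2 itself (r = 0.543) and NPC1 (r = 0.536). Over all genes 13.2% were above 0.5, so this count was near the share of the table. SCAP had r = 0.203 and SREBF1 r = 0.240. LIPA had the lowest value, r = -0.688, and was lowest in pregnant replicate 5, at 5714 normalized counts, and highest in pregnant replicate 1, at 7636.

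Single pairs with HMGCS1 were tested by exact permutation over all orders of the 8 CL, for 13860 genes. Of the 17 other targets, 11 had an unadjusted p under 0.05 for Pearson r, all with r above 0, where 3.08% of all genes did. For Spearman rho 9 did, where 2.55% of all genes did. The targets are not independent, since many moved together over the same 8 CL, so these counts are not separate results. None of the 11 other members did for r in either direction, where 6.36% of all genes did. After adjustment over all genes, 0 members passed, as did 0% of the table, and the smallest adjusted p of a member was 0.678. DHCR7 had r = 0.936 (exact p = 0.000521, adjusted p = 0.678) and rho = 0.905 (exact p = 0.00456, adjusted p = 0.790). SQLE had r = 0.880 (exact p = 0.00327, adjusted p = 0.678) and rho = 0.881 (exact p = 0.00724, adjusted p = 0.790).

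The 2 CL farthest from the median of HMGCS1 were cyclic replicate 1 and pregnant replicate 2. With these left out, 6 CL remained, and r with HMGCS1 was 0.806 for DHCR7 and 0.947 for SQLE. For LSS it went from 0.583 to -0.362 and for NPC1 from 0.651 to -0.350, so that their relations to HMGCS1 rested on those 2 CL. SREBF2 had r = 0.543 with HMGCS1 (exact p = 0.162, adjusted p = 0.868), rho = 0.762 (exact p = 0.0368, adjusted p = 0.916) and r = 0.278 without the 2 CL. INSIG1 had r = 0.656 (exact p = 0.0797, adjusted p = 0.809), rho = 0.5 (exact p = 0.216) and r = 0.579 without them.

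Several markers of other cell types were correlated with the mean of the targets. All 9 of 9 macrophage markers had r below 0 with the mean of the targets (median -0.703, from -0.826 to -0.0445). The lowest value of any of these markers was 99.5 normalized counts, for MRC1 in pregnant replicate 2. Their summed level ran from 16785 to 27787 normalized counts in cyclic CL and from 17412 to 32180 in pregnant CL. The order of these sums was not the reverse of that of the targets. Pregnant replicate 5, the second highest CL for the targets, had the second highest sum, 31286. There C1QA and C1QB, the markers with r nearest 0 (-0.0445 and -0.330), were at 8310 and 12701. With the markers standardized and weighted equally, pregnant replicate 5 had a mean of 0.275 and pregnant replicate 4 the highest, 1.07. That mean had r = -0.743 with the mean of the targets (Spearman rho = -0.690), from -0.852 to -0.616 with single CL left out. CD68, a lysosomal protein of macrophages, was named after its values were seen. Its r with HMGCS1 was the lowest of the 9, where that of C1QA, the nearest to 0, was -0.375. CD68 had r = -0.895 with HMGCS1 (exact p = 0.00134, adjusted p = 0.678) and rho = -0.881 (exact p = 0.00724), and r = -0.646 without cyclic replicate 1 and pregnant replicate 2. These p are those of a marker chosen for its values. Without those 2 CL, r with HMGCS1 over the 9 markers ran from -0.874 for CD163 to 0.250 for C1QA. T and natural killer cell markers were below 0 for 9 of 9 (median -0.549, from -0.761 to -0.0851), with sums from 3161 to 4910 in cyclic CL and from 4833 to 6309 in pregnant CL.

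**Figure D5:**
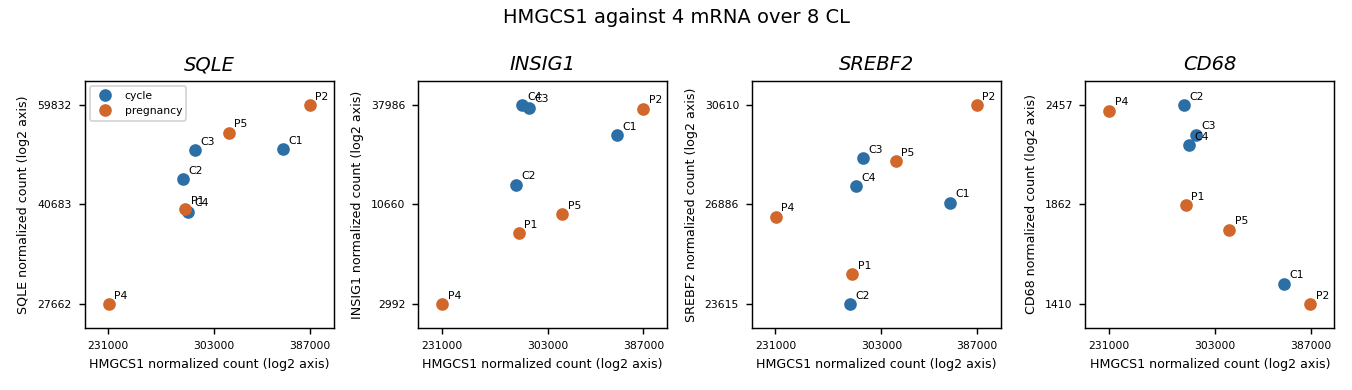
Normalized counts of SQLE, INSIG1, SREBF2 and the macrophage marker CD68 against those of HMGCS1 (log2 axes), with 1 point for each CL (C, estrous cycle, and P, pregnancy) and color for the group. SQLE follows HMGCS1 across both groups (r = 0.880), and INSIG1 and SREBF2 scatter more widely (r = 0.656 and 0.543). CD68, chosen after its values were seen, runs opposite (r = -0.895).

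Endothelial markers were below 0 for 6 of 8 (median -0.263), with sums from 75759 to 90207 in cyclic CL and from 68837 to 95763 in pregnant CL. KDR, a VEGF receptor of endothelial cells named after its values were seen, had the lowest r of the list (-0.932). PECAM1 had the highest (0.163), and TEK was near 0 (-0.0229). Stromal and pericyte markers were below 0 for 6 of 8 (median -0.220), and luteal steroidogenic markers above 0 for 6 of 9 (median 0.192). The part of cell composition in the co-variation of the targets was not tested.

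Further genes of the same pathway, from a list of 34 of which 31 were in the table, gave no call either. Of these, 22 were above 0 and 9 below 0 in log2 fold change, where 50.1% of all genes were above 0. At an unadjusted p under 0.05, 2 were higher, where 3.66% of all genes were, and none was lower, where 3.85% were, and 0 passed after adjustment over all genes in limma, edgeR or DESeq2. ABCA1, which exports cholesterol to apolipoprotein A-I, was at 3090, 2593, 3340 and 7008 normalized counts in cyclic CL 1 to 4, and at 7400, 8183, 9203 and 4653 in pregnant CL 1, 2, 4 and 5. Cyclic replicate 4 lay among the pregnant CL, and the log2 fold change was 0.95 (adjusted p = 0.576 by limma). OSBP, an oxysterol binding protein, was the only gene of the 31 whose groups did not overlap, where 4.3% of all genes had such groups, with a log2 fold change of 0.19 (adjusted p = 0.660 by limma). TMEM97, a sterol-regulated membrane protein that binds NPC1, was close to the mean of the targets (r = 0.820).

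Outside these lists, the genes closest to the mean of the targets were ranked, leaving out symbols that begin with LOC. The first 10 were CERS2, PMM2, COPS3, ABHD6, GPX4, APOA1BP, RILPL1, MON1A, ATG4B and C21H15ORF17, with r from 0.946 to 0.981. CERS2 (0.981), PMM2 (0.968) and COPS3 (0.967) were above NSDHL, the closest target, which had r = 0.965 with the other targets. The order of the CL was thus not confined to the targets. CERS2, a ceramide synthase, varied little, from 12519 normalized counts in pregnant replicate 4 to 15474 in pregnant replicate 2. ABHD6, a lipase that hydrolyzes monoacylglycerols, spanned a wider range of levels in the same order, from 9657 in pregnant replicate 4 to 40767 in pregnant replicate 2. SC5DL, the row that RefSeq names as SC5D, had r = 0.935 and was chosen after its values were seen. It was at 13581, 11621, 12918 and 10740 in cyclic CL 1 to 4, and at 10984, 14339, 9142 and 12369 in pregnant CL 1, 2, 4 and 5, highest and lowest in the same CL as DHCR7.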

How the data were processed

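RNA of 8 snap frozen CL was sequenced from stranded libraries of total RNA, all with an RNA quality index above the limit stated in the labels. The authors deposited a normalized signal per gene. Within each library nearly all values (99.9%) were whole multiples, within 0.01, of the worth of 1 read, so reads could be recovered, 42770725 to 48294165 per CL. For the aligner, counter and genome build, no name is given in the sources used here. The deposited group means were not used.

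The groups were compared with limma 3.58.1 (R 4.3.3) on log2(signal + 1) over all 13861 genes (mean of at least 1), with adjustment by Benjamini and Hochberg (threshold 0.05). Single values were tested by exact 2-sided permutation of the 70 labelings, and relations to HMGCS1 over all orders of the CL. Alternatives were edgeR 4.0.16 and DESeq2 1.42.0 on recovered reads, pseudocounts of 0.1 and 0.5, other filters, quantile normalization, a replicate block and each CL left out. Fits were tested on simulated data.

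Values in every CL are given for the 12 members with the smallest p, for INSIG1, SREBF1, SREBF2, SCAP, HMGCS1 and SQLE, and for the targets with the 5 largest and 3 smallest r with the other targets. Outside the members, the 10 genes with the largest r with the mean of the targets are named, leaving out symbols that begin with LOC. Genes of the further pathway list are named at an unadjusted p under 0.05 or with r beyond 0.8 in size. Some genes of that list are not reported here. OSBP and the markers CD68 and KDR were named after their values were seen. Members and lists were chosen with earlier results of these data known. No sequences were used. The CL are separate animals, so that p-values measure the spread between animals.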

Additional observations from a re-analysis of the deposited data

Results flagged for a closer look

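Within the groups of 4 CL, 58 sets of values (29 members in each group) were examined for a single CL far from the other 3. Of the 58 sets, 5 were flagged, beside a rate by chance of about 1 in 20 sets. The sets are not independent, since they share CL and many members moved together, so no excess over chance is claimed. HMGCS1 was at 361278 normalized counts in cyclic replicate 1, and at 279618 to 288722 in the other cyclic CL. VLDLR was at 836 in the same CL, and at 1066 to 1110 in the others. MVD was at 11244 in cyclic replicate 4, and at 13920 to 14256 in the others, and EBP was at 4010 there, against 5838 to 6127. NPC1 was at 11390 in pregnant replicate 2, and at 7900 to 8445 in the other pregnant CL.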

How the results depend on the processing

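In none of 16 alternative fits did any of the 18 members given in full pass after adjustment, and the count of members past that threshold was 0 in each. Over all genes the count went from 3 to 95 with DESeq2, 1 with edgeR, 0 with the replicate block and 1 to 4 with single CL left out. The 1 member lower at an unadjusted p under 0.05 (INSIG1) became 0 with DESeq2, edgeR and the replicate block, and 0 to 2 with single CL left out, where higher members ran from 1 to 3. Same-numbered CL did not deviate together (correlations of 0.025, -0.051 and 0.011). This cannot show whether the animals were paired by design, since a pairing need not leave a shared deviation. Directions near 0 turned: HMGCS1 gave 0.000287 with DESeq2 and 0.0655 with quantile normalization, and NSDHL gave 0.0141 with DESeq2, 0.0132 with edgeR and 0.0581 with quantile normalization. With single CL left out, log2 fold changes ran from -0.14 to 0.11 for HMGCS1, -0.0872 to 0.10 for NSDHL, -0.12 to 0.14 for CYP51A1, -0.16 to 0.0319 for DHCR7, -0.24 to 0.13 for SQLE and -0.0132 to 0.10 for SREBF2. Members above 0 numbered 13 to 23, and medians ran from -0.03 to 0.10 over members and -0.10 to 0.11 over targets. The r with the targets ran from -0.214 to 0.438 for LSS and from -0.580 to 0.0029 for the endothelial mean (highest without pregnant replicate 2), and for the luteal mean it was -0.010 after quantile normalization. The cause of these changes was not tested. With 4 CL a group, the 95% intervals of log2 fold changes ran from -0.07 to 0.31 for NPC2, the narrowest of the members, and from -2.94 to -0.08 for INSIG1, the widest.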

Other observations

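No gene passed the test on a list of fatty acid synthesis and storage genes that SREBP1 is known to activate. Of 11 genes in the table, 8 were above 0 in log2 fold change, where 50.1% of all genes were. At an unadjusted p under 0.05, 4 were higher (MID1IP1, GPAM, FASN and ACACA), where 3.66% of all genes were, none was lower, where 3.85% were, and 0 passed after adjustment over all genes in limma, edgeR or DESeq2. FASN, the fatty acid synthase, was at 80836, 85597, 88108 and 107557 normalized counts in cyclic CL 1 to 4, and at 119451, 170747, 112420 and 95982 in pregnant CL 1, 2, 4 and 5. Pregnant replicate 5 lay among the cyclic CL, and the log2 fold change was 0.44. GPAM, which starts glycerolipid synthesis, had a log2 fold change of 0.66.

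Leaving out symbols that begin with LOC, the genes closest to INSIG1 in log2 values were TMEM169 (r = 0.991), ZNF564 (r = 0.968) and MMP16 (r = 0.964). They were chosen after their values were seen. ZNF564 was at 852, 341, 2044 and 1693 normalized counts in cyclic CL 1 to 4, and at 251, 1797, 95.7 and 174 in pregnant CL 1, 2, 4 and 5. The CL that were high and low for it were those of INSIG1, which follows from its choice by r.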
